A study of Mus musculus with 23 samples.

Results

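The Cd209 lectins are a family of 7 mouse genes, Cd209a to Cd209g, and they were taken here as the 7 rows of those symbols among the 24411 genes of the deposited tables. They are the mouse relatives of the human receptor DC-SIGN. These proteins are C-type lectins: a calcium-dependent domain outside the cell binds mannose- and fucose-rich sugars on microbes, on serum glycoproteins and on other cells, and most members take their ligand into the cell. Cd209a (mouse DC-SIGN) is known from dendritic cells and monocyte-derived cells, and Cd209b (SIGN-R1) from macrophages of the splenic marginal zone and of lymph node sinuses. Cd209f and Cd209g are known from resident tissue macrophages that carry Lyve1 and Folr2, and the remaining members are less studied.

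RNA was sequenced from whole lung of C57BL/6 mice that were untreated and kept in a barrier facility, in 23 libraries of 7 groups. Lungs of wild-type mice (WT) and of mice lacking Rarres1 (KO) were compared at embryonic day 19.5 (E19.5), with 3 libraries of each genotype, and at 10 months, again with 3 of each. At 18 months there were 3 WT lungs, 5 KO lungs without tumour (numbered 1, 2, 3, 6 and 7) and 3 KO lung tumours (numbered 1, 3 and 6). These numbers are those of the library codes, and a tumour and a lung of the same code are read here as 1 animal. The titles of the lungs coded 6 and 7 count them as 4 and 5, so the pair of animal 6 rests on the code alone. Postnatal mice were male, the sex of the embryos is not given, and the labels do not say how the Rarres1 allele was made or in which cells it is lost.

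Library totals ran from 23.7 to 46.6 M expected reads, and no library was a near copy of another. Rarres1, the targeted gene, had 105 reads in the 3 WT embryos and 2 in the 3 KO embryos. It had 130 reads against 0 at 10 months and 187 against 0 at 18 months, and 1 read in the 3 tumours, so its reads went with the genotype labels in every group. The tissue label was matched by lung epithelial genes (Sftpc, Sftpb, Scgb1a1, Ager and Nkx2-1), which together reached 43550 to 90536 CPM (reads per M of the library total) in each adult library. Values below are CPM scaled with TMM factors, as mean ± SD unless single libraries are given. Differences are log2 fold changes ± SE, and a gene is called when its adjusted p (edgeR's quasi-likelihood test, Benjamini-Hochberg adjustment over all genes tested) is under 0.05. In whole tissue, fewer cells of a type and less RNA per cell cannot be told apart.

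The 7 genes lie side by side on chromosome 8 of GRCm38, from 3743397 to 4137707, a span of 394.311 kb. Their order is Cd209a, Cd209e, Cd209d, Cd209b, Cd209c, Cd209f and Cd209g. The first 6 are on the minus strand, and Cd209g is on the plus strand, 28.262 kb beyond Cd209f and transcribed away from it. Fcer2a (the low-affinity IgE receptor) and Clec4g (a lectin of sinusoidal endothelium) flank the group on one side, and Evi5l on the other.

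Cd209f and Cd209g are near-copies, which bears on how their reads can be told apart. Their annotated transcripts share an unbroken run of 416 bases, and 38.1% of the 50-base words of Cd209f occur in Cd209g. The other 20 pairs of members share runs of 10 to 26 bases and 0 words of 50 bases. The expected counts of Cd209f and of Cd209g carry decimals in 17 of 23 libraries, while their sum is whole in all 23 and the other 5 members have whole counts throughout. Reads of the pair were thus divided between both genes by estimation. Their differences by genotype in the adult and between tumour and lung are also given for the sum of their reads.

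The likeness extends into the DNA before their RefSeq starts. For Cd209g these bases lie inside the gene as placed above, which begins at 4134098, so they are upstream of its RefSeq start only. The 250 bases before the RefSeq start (build GRCm38.p6, entries found for 7 of 7 members) share a run of 154 bases between Cd209f and Cd209g, against 7 to 12 bases in the other 20 pairs. The sequences below are these windows, 5′ to 3′ on the strand of the gene, without the bases that the annotation places in an untranslated region. They are shown because Cd209f and Cd209g are alike here as well, whereas Cd209a and Cd209b are not. The part of these sequences in the levels of the genes was not tested. Cd209f is at chr8:4105836-4106014 (minus strand), Cd209g at chr8:4134486-4134651 (plus), Cd209a at chr8:3748985-3749234 (minus) and Cd209b at chr8:3926845-3927091 (minus). Capitals in Cd209f and Cd209g mark the shared run, of which 83 and 84 bases fall in the printed part. The rest of the run lies in the bases left out. Capitals in Cd209a and Cd209b mark the letters TTCCGG.
Cd209f: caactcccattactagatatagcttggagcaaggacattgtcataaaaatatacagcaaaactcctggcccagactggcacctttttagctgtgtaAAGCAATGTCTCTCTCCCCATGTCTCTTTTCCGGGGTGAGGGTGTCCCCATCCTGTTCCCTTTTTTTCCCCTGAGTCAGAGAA
Cd209g: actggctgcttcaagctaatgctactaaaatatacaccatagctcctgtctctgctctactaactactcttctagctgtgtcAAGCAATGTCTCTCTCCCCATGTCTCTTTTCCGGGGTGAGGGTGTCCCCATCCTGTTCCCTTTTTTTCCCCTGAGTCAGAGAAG
Cd209a: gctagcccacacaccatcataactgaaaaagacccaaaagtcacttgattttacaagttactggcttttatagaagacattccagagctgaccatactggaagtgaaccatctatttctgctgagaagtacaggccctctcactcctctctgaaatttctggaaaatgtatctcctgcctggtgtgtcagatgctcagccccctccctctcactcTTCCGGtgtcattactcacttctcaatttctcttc
Cd209b: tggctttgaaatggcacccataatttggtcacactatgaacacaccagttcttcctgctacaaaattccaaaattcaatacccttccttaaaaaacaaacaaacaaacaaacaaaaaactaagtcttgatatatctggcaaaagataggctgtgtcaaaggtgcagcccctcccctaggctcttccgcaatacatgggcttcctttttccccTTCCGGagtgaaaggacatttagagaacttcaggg
TTCCGG, which reads CCGGAA on the other strand and holds the core letters of many ETS factor sites, occurs on either strand in the windows of Cd209a, Cd209b, Cd209e, Cd209f and Cd209g, and in 3952 of the 32851 promoter windows of that length, or 12%. It begins 35 bases before the start in Cd209a, 38 in Cd209b, 126 in Cd209f and 140 in Cd209g. TGAGTCA, the letters of an AP-1 site, occurs on either strand in Cd209f and Cd209g and in 4.46% of all windows. TATAAA, the letters of a TATA box, occurs on either strand in Cd209a, Cd209f and Cd209g and in 12.4% of all windows. In Cd209a it is on the other strand only, printed as tttata. In Cd209f and Cd209g it begins 29 and 43 bases before the start, within the bases left out of the printed sequences. The motifs do not overlap each other by their letters in the printed sequences, and a match is a description of letters only.

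In adult WT lung Cd209a and Cd209f were the most abundant members per transcript length. Deposited FPKM values, which allow levels of different genes to be set side by side, were 8.77 ± 1.90 for Cd209a and 6.87 ± 3.18 for Cd209f at 10 months (SD, n = 3), with overlapping ranges. Next came Cd209d at 2.33 ± 0.423, Cd209g at 2.28 ± 0.910 and Cd209b at 2.06 ± 0.371 FPKM. The ranges of these 3 genes overlapped each other, and their highest value, 3.32 for Cd209g, was below the lowest Cd209f value of 5.01. Cd209c at 0.390 ± 0.110 FPKM and Cd209e at 0.137 ± 0.119 FPKM were the least abundant, and the ranges of both lay below those of the other 5. The order at 18 months was the same at its ends: Cd209a at 7.40 ± 1.62 FPKM and Cd209f, from 5.83 to 8.71 FPKM, were highest, and Cd209c at 0.363 ± 0.111 and Cd209e at 0.187 ± 0.101 FPKM lowest.

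**Figure D1:**
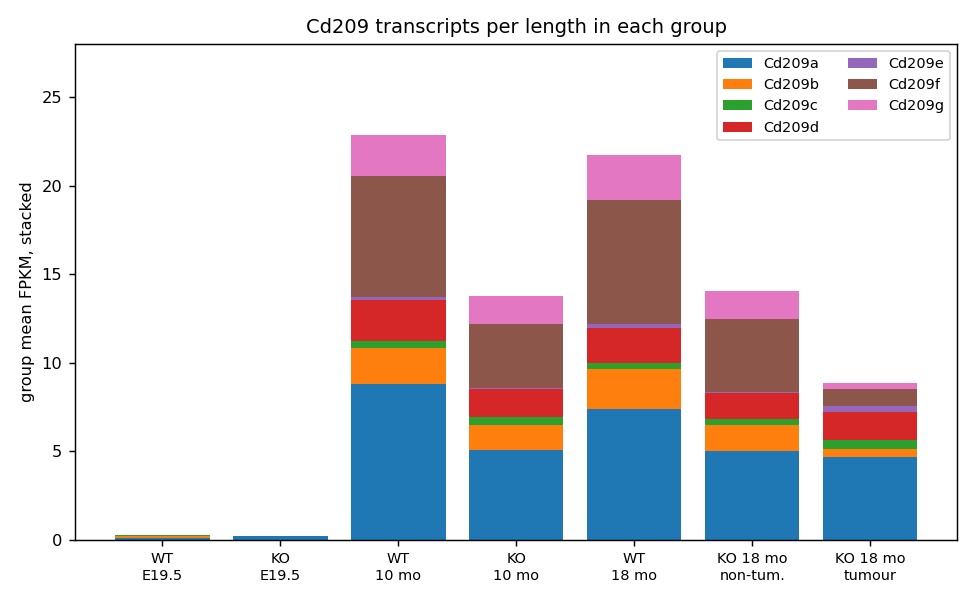
Group means of the 7 Cd209 genes in FPKM (vertical axis, stacked, fragments per kilobase of transcript and per M fragments) for the 7 groups of libraries. Cd209a and Cd209f make up most of the column in adult WT and KO lung, the embryo columns are close to 0, and the tumour column holds a smaller Cd209f and Cd209g portion.

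Lungs at E19.5 held almost no Cd209 RNA. All 7 members together had 32 reads in the 3 WT embryos and 25 in the 3 KO embryos, or 0.413 ± 0.314 and 0.307 ± 0.0360 CPM. Cd209d, Cd209e and Cd209g had 0 reads in all 6 embryos, which allows up to 0.13 CPM of the library total (a floor of 3 reads, counting error only). Cd209f had 1 read in 1 WT embryo and 0 in the other 5.

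The embryo reads that there were came from Cd209a, Cd209b and Cd209c. Cd209a, the dendritic cell member, had 3 reads in each WT embryo and 8, 7 and 4 in the KO embryos, so the groups did not overlap. Cd209b, the marginal zone macrophage member, had 0, 4 and 14 reads in WT and 0, 0 and 3 in KO embryos. The pooled KO to WT ratio of Cd209b was 0.164 (95% interval 0.0310 to 0.563, counting error only), and 14 of the 18 WT reads were from a single embryo. Cd209c had 4 reads in the WT and 3 in the KO embryos. No member passed the low-count filter of edgeR for genotype at E19.5, where 0% of 15307 genes were called (144 had an unadjusted p under 0.05). DESeq2 and edgeR without the filter each tested 4 members and called 0, and DESeq2 called 2 genes in all.

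By 10 months every member had reads in the lung. Cd209a was at 8.84, 14.0 and 11.2 CPM in the 3 WT lungs, against 0.104, 0.111 and 0.121 CPM in the WT embryos, a log2 difference of 6.60 ± 0.28 (adjusted p = 1.57e-07, edgeR). In KO lungs it rose from 0.267, 0.266 and 0.160 CPM to 7.74, 2.98 and 8.87 CPM, by 4.78 ± 0.51 on the log2 scale (adjusted p = 0.000123, edgeR). These are adult levels far above the embryo range in both genotypes.

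Cd209b was at 4.30, 3.08 and 4.00 CPM in WT lungs at 10 months and at 0, 0.148 and 0.566 CPM in the WT embryos, a log2 difference of 4.02 ± 0.76 (adjusted p = 0.0031, edgeR). The pooled reads of KO lungs were 70.4-fold above those of KO embryos (95% interval 23.8 to 344). Cd209c, a member of low abundance in lung, was 3.30 ± 0.55 higher on the log2 scale in WT (adjusted p = 0.000617, edgeR), with 46 reads against 4.

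For members with no embryo reads the rise is a lower bound, set against a floor of 3 reads over the group. In WT, Cd209d was at least 39.9-fold higher at 10 months and Cd209g at least 52.3-fold, and in KO they were at least 27.4-fold and 37.4-fold higher. Cd209f rose 486-fold in WT by pooled reads (95% interval 86.8 to 19216) and at least 86.5-fold in KO. Cd209e, with 19 reads in WT and 8 in KO lungs at 10 months against 0 in the embryos, was not tested.

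Of the 7 members, 6 were tested between E19.5 and 10 months in WT and all 6 were called higher. In KO 5 were tested and all 5 were called higher. At the same time 62.8% of all genes tested were called in WT and 60.5% in KO, and members that are near 0 in the embryo passed the filter on low counts through their adult level alone, so these counts add nothing to the values. Other C-type lectin receptors were also higher in the adult: 21 of 23 tested were called higher in WT and 1 lower, with a median log2 difference of 1.44 against 0.00 over all genes. Among them were Mgl2, a galactose-type lectin of dendritic cells and macrophages, at 5.11 ± 0.18, and Fcer2a, which flanks the Cd209 genes, at 6.61 ± 0.32 on the log2 scale. Markers of several cell types moved with the members in WT at 10 months. All 6 B cell, all 5 T cell and 8 of 9 alveolar macrophage genes were called higher, and 0 were called lower. Of 10 dendritic cell genes 8 were called higher and 1 lower, and of 14 interstitial macrophage genes 4 higher and 2 lower. Of 4 tested genes of sinus and marginal zone macrophages 1 was called higher, and the list of 5 summed to 116 to 136 CPM in WT embryos and 129 to 138 CPM in WT adults. Their part in the rise of the members was not tested.

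**Figure D2:**
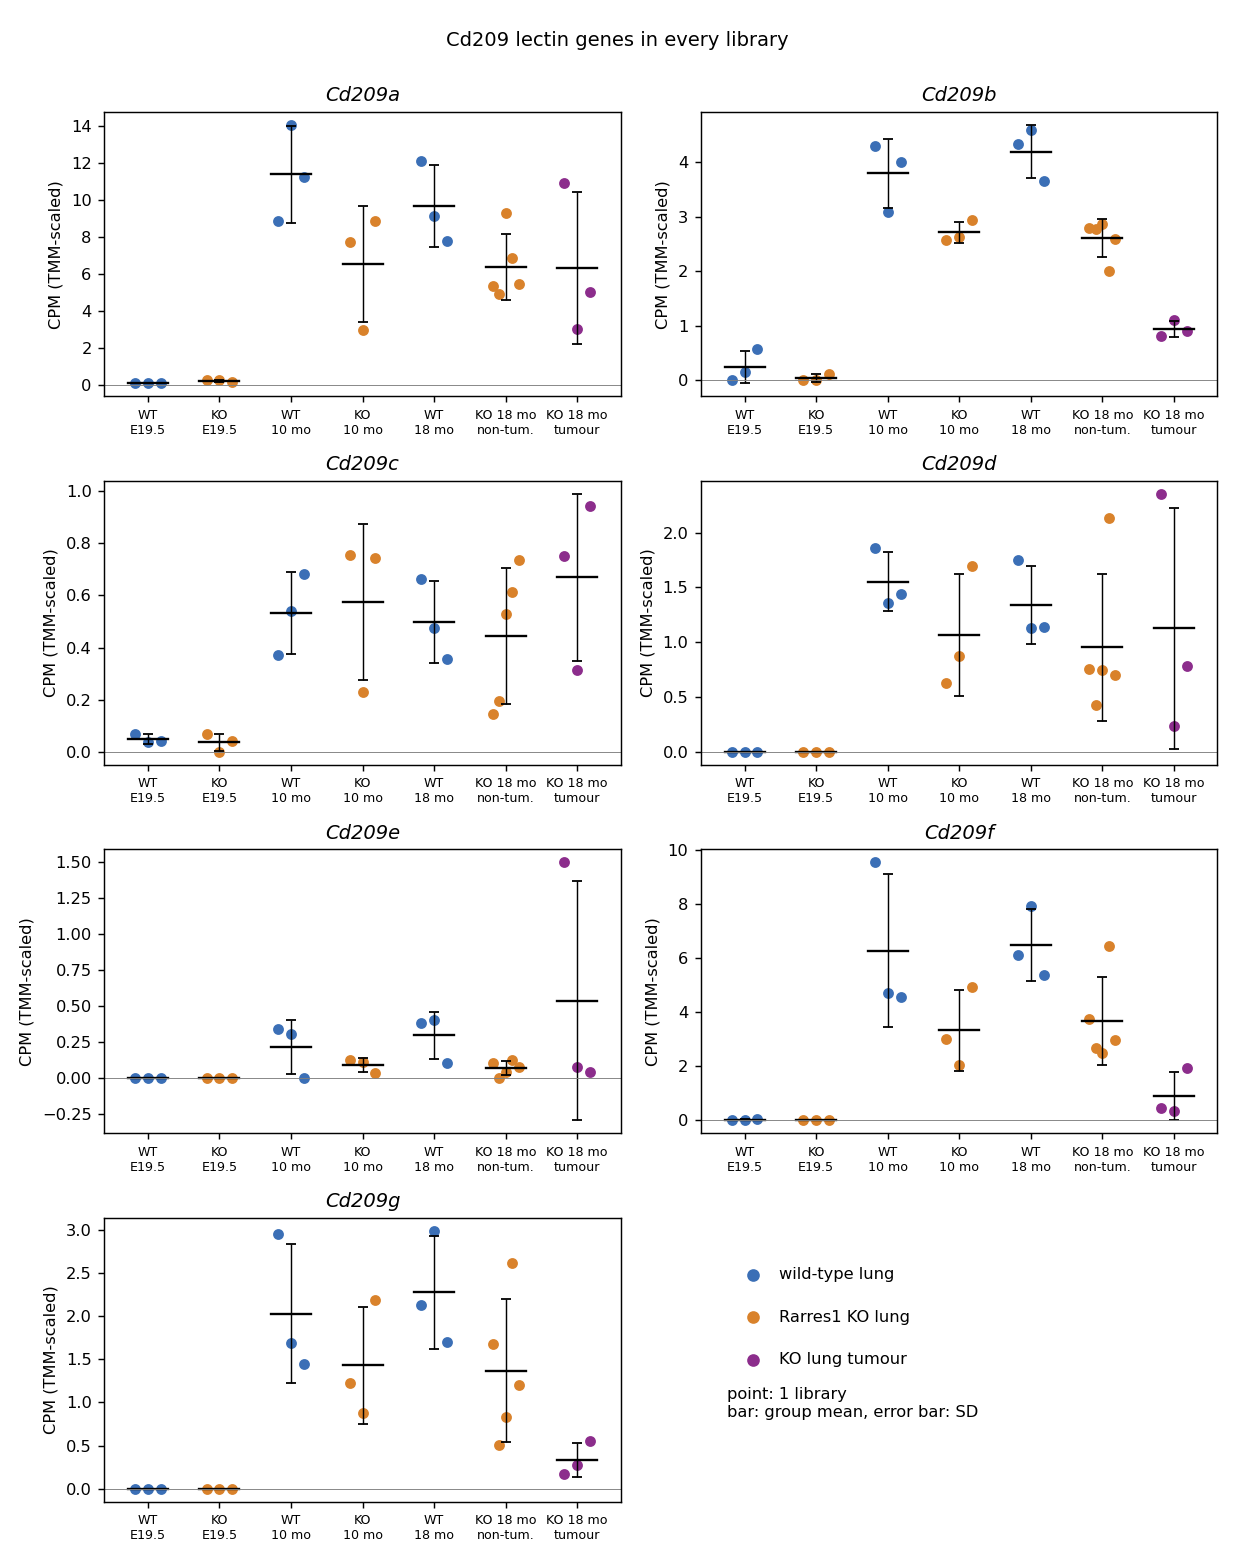
TMM-scaled CPM (vertical axis, linear) of each Cd209 gene in each of the 23 libraries by group, with 1 point per library, the group mean as a bar and the SD as the error bar. All embryo points lie near 0, Cd209b points of KO lung lie below those of WT lung at both adult ages, and tumour points of Cd209b and Cd209f lie below all KO non-tumour points.

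Mean levels of most Cd209 members were lower in adult KO lungs than in WT lungs of the same age, but no single member was called by edgeR at either age. The 7 members together were at 25.8 ± 2.42 CPM in WT and 15.7 ± 5.85 CPM in KO at 10 months (SD, n = 3 each), and the ranges did not overlap. At 18 months they were at 24.7 ± 4.05 CPM in WT (n = 3) and 15.5 ± 3.53 CPM in KO (n = 5), with 1 KO lung above the lowest WT lung. At 10 months edgeR called 0 of 6 tested members, with 1 at an unadjusted p under 0.05, and DESeq2 called 0. At 18 months edgeR called 0 of 6, with 3 at an unadjusted p under 0.05, and DESeq2 called 1. The difference was below 0 for 5 of 6 members at 10 months and for 6 of 6 at 18 months. The median over all genes was -0.0003 and -0.002 at these ages. Cd209f and Cd209g, whose shared reads were divided by estimation, enter these counts as 2 members. The call rate over all genes was 1.52% at 10 months and 0.0776% at 18 months. An unadjusted p under 0.05 (edgeR) was reached by 2670 of 15324 genes at 10 months and by 1243 of 15463 at 18 months.

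Cd209b had the smallest relative spread of the 7 members in every adult group (SD of at most 16.7% of the mean) and was lower in KO without overlap at both ages. At 10 months it was at 2.58, 2.63 and 2.93 CPM in KO against 4.30, 3.08 and 4.00 CPM in WT. The lowest WT lung was above the highest KO lung, though by a small step. The log2 difference was -0.49 ± 0.18 (adjusted p = 0.202, edgeR's quasi-likelihood test).

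At 18 months Cd209b was at 4.34, 4.59 and 3.65 CPM in the 3 WT lungs and at 2.79, 2.77, 2.87, 2.01 and 2.59 CPM in the 5 KO lungs. All 5 KO values were below all 3 WT values. The difference was -0.69 ± 0.18 (adjusted p = 0.297, edgeR), and DESeq2 gave an adjusted p of 0.0442 for the same libraries.

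After these values were seen, the genotype effects at the 2 adult ages were averaged in a fit over all 14 adult lungs without tumour. Cd209b was then called, at -0.59 ± 0.12 on the log2 scale, lower in KO (adjusted p = 0.0265, edgeR), and it was the 1 member of 6 to be called, where 1.76% of all genes were. The call was lost, with adjusted p from 0.0546 to 0.0827, when any of 7 libraries was left out: WT lungs 1 and 3 and KO lungs 1, 2 and 3 at 10 months, and WT lungs 1 and 2 at 18 months. It was also lost in a fit that shares its spread with the embryos and tumours (adjusted p = 0.402).

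Cd209a and Cd209f showed larger mean differences with wider spread. Cd209a was at 7.74, 2.98 and 8.87 CPM in KO against 8.84, 14.0 and 11.2 CPM in WT at 10 months, with KO lung 3 just above WT lung 1. At 18 months it was at 12.1, 9.11 and 7.76 CPM in WT and at 5.33, 4.91, 9.30, 6.84 and 5.46 CPM in KO, where KO lung 3 lay above 2 of the WT lungs. The differences were -0.80 ± 0.43 (adjusted p = 0.41) and -0.60 ± 0.23 (adjusted p = 0.519), and their average over both ages was -0.70 ± 0.22 (adjusted p = 0.134, all edgeR).

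Cd209f, the more abundant of the near-copies, was at 9.55, 4.71 and 4.57 CPM in WT and 2.99, 2.02 and 4.95 CPM in KO lungs at 10 months. At 18 months it was at 6.12, 7.95 and 5.39 CPM in WT and at 3.75, 2.65, 2.49, 6.43 and 2.98 CPM in KO. At each age 1 KO lung, lung 3 at 10 months and lung 6 at 18 months, reached into the WT range. The differences were -0.93 ± 0.44 (adjusted p = 0.347) and -0.84 ± 0.31 (adjusted p = 0.489), with an average of -0.88 ± 0.27 (adjusted p = 0.118, all edgeR).

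Cd209g was at 2.95, 1.69 and 1.44 CPM in WT and 1.23, 0.877 and 2.19 CPM in KO at 10 months, and its mean was 2.27 ± 0.655 CPM in WT and 1.37 ± 0.824 CPM in KO at 18 months. Its ranges overlapped at both ages. The summed reads of Cd209f and Cd209g differed by -0.81 ± 0.45 at 10 months (adjusted p = 0.421) and by -0.81 ± 0.33 at 18 months (adjusted p = 0.562, edgeR), close to the values of Cd209f alone. Averaged over both ages, the sum differed by -0.81 ± 0.28 (adjusted p = 0.166, edgeR).

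The 3 other members had no clear genotype difference at this depth. Cd209d was at 1.86, 1.36 and 1.44 CPM in WT and 0.629, 0.877 and 1.70 CPM in KO at 10 months, with overlap. Cd209c was at 0.533 ± 0.156 CPM in WT and 0.575 ± 0.300 CPM in KO at 10 months, and its difference of 0.12 ± 0.45 changed sign with the library left out. Cd209e was not tested, with 19 WT and 8 KO reads at 10 months. The 3 WT lungs of 18 months had 25 reads and the 5 KO lungs 10. Scaled to depth, its 18-month mean was 0.297 ± 0.166 CPM for WT against 0.0703 ± 0.0495 CPM for KO. The 10-month means were 0.215 ± 0.187 CPM for WT and 0.0919 ± 0.0493 CPM for KO. Mean Cd209e was thus lower in KO at each age, but the ranges overlapped. So few reads leave a genotype difference neither shown nor excluded. On simulated counts with the depth and spread of these libraries, the test recovered 50.7% of genes changed 1.5-fold at 10 months and 29.9% at 18 months. The changed genes were drawn at random from all genes tested and were not matched to the reads of the members. These rates are therefore not those for Cd209b or the other members.

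The genotype effect did not differ detectably between the adult ages. For the effect at 18 minus 10 months edgeR called 0 of 6 members, with 0 at an unadjusted p under 0.05, and 0% of all genes (453 of 15653 had an unadjusted p under 0.05). DESeq2 called 0 members and 1 gene, and the edgeR value for Cd209b was -0.20 ± 0.24. For the effect at 10 months minus E19.5, 0 of 6 members were called against 0.156% of genes (1 member, Cd209a, had an unadjusted p under 0.05, and DESeq2 called 0). Cd209d and Cd209g had 0 reads in all embryos, so this effect cannot be estimated for them (SE of 1034 and 864). Cd209f had 1 embryo read. These members passed the filter through their adult level alone, so the count of 0 says little about them. Between 18 and 10 months edgeR called 0 of 6 members in WT and 0 of 6 in KO, with 0 at an unadjusted p under 0.05, and DESeq2 called 0. The share of all genes that edgeR called was 0% in each (833 and 782 with an unadjusted p under 0.05), and DESeq2 called 21 and 11. Mean Cd209b in WT was 3.79 ± 0.634 CPM at 10 months and 4.19 ± 0.488 CPM at 18 months, and in KO 2.71 ± 0.190 and 2.60 ± 0.349 CPM.

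Few related genes were called in the adult genotype comparison, as was the case for the members themselves. At 10 and at 18 months 0 of 23 other C-type lectin receptors, 0 of 14 genes for ligands and signalling partners of DC-SIGN and 0 of 17 genes of the IL-4 and GM-CSF response were called. Over both ages 1 lectin was called, Mrc1, the macrophage mannose receptor, and it was higher in KO by 0.35 ± 0.08 (adjusted p = 0.0385, edgeR). Of 14 interstitial macrophage genes only Cbr2, a carbonyl reductase also abundant in club cells of the airway, was called at 10 months, and it was higher in KO (0.43 ± 0.08, adjusted p = 0.0339, edgeR). The summed level of this marker list was 4575 to 4869 CPM in WT and 5944 to 6278 CPM in KO at 10 months. Without Cbr2 it was 1052 to 1217 CPM in WT and 1108 to 1201 CPM in KO. Folr2, also on this list, was at 5.35 ± 1.23 CPM in WT and 4.30 ± 0.608 CPM in KO, with overlap. Lyve1 was at 429 ± 90.9 CPM in WT and 410 ± 69.8 CPM in KO, also with overlap. Of the 14 genes 7 had a difference below 0. Dendritic cell markers summed to 184 to 215 CPM in WT and 193 to 252 CPM in KO at 10 months, and 0 of 10 were called. At 18 months they summed to 207 to 209 CPM in WT and 250 to 311 CPM in KO, without overlap. Of the 10 genes 9 had a difference above 0 at that age, with a median of 0.55, and 0 were called. Genes of sinus and marginal zone macrophages, the cells that Cd209b is known from, summed to 129, 138 and 129 CPM in WT and to 127, 96.2 and 115 CPM in KO at 10 months. The KO lungs were below the WT lungs on this list, most of which is Vcam1 (102 CPM in WT, 80.4 CPM in KO). At 18 months the list was at 122 to 137 CPM in WT and 102 to 148 CPM in KO. Of its 5 genes 0 were called at either age, and over both ages its median difference was -0.23 against 0.00 for all genes. Jchain, the joining chain of secreted antibodies, was the gene most like Cd209d between libraries. It was also lower at 10 months, at 15.1, 24.9 and 98.1 CPM in KO against 158, 135 and 124 CPM in WT. At 18 months its mean was instead higher in KO, at 306 ± 304 CPM against 97.0 ± 46.3 CPM in WT, with overlap. Mgl2, the gene most like Cd209a, was at 19.2 ± 3.14 CPM in WT and 19.4 ± 5.23 CPM in KO at 10 months. Its 18-month values were 19.8 ± 2.67 CPM in WT and 16.7 ± 4.37 CPM in KO. The part of these cells in the lower Cd209 levels was not tested.

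**Figure D3:**
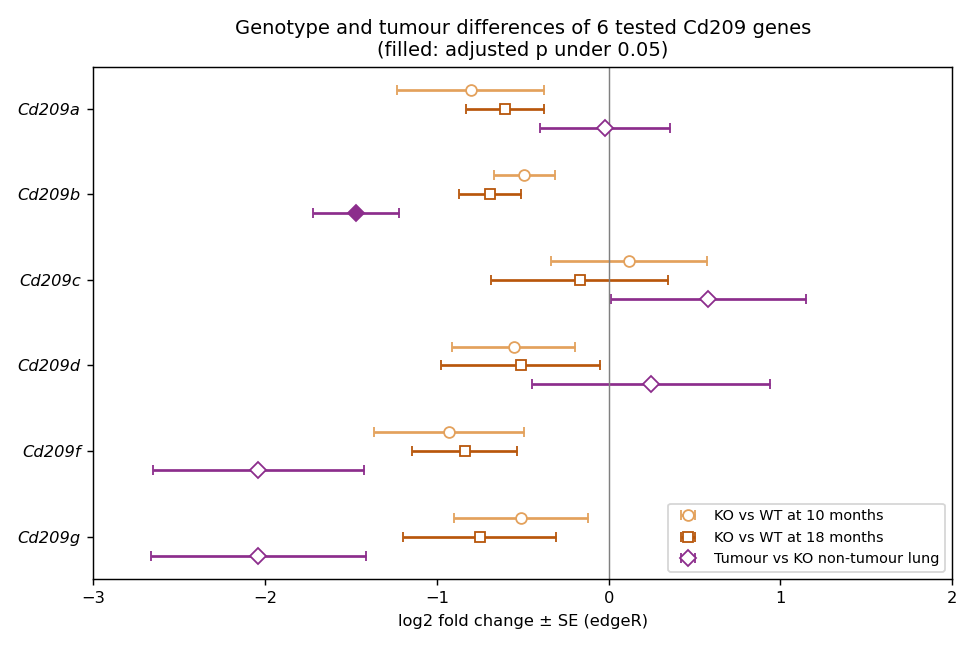
Log2 fold changes ± SE (horizontal axis, edgeR) of the 6 tested Cd209 genes for KO against WT at 10 months, KO against WT at 18 months and tumour against KO non-tumour lung, with filled symbols for an adjusted p under 0.05. Genotype differences lie mostly between -1 and 0, and Cd209b, Cd209f and Cd209g are the genes far below 0 in tumours.

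Lung tumours of KO mice held less Cd209b, Cd209f and Cd209g RNA than KO lung without tumour, whereas Cd209a, Cd209c and Cd209d varied widely among the tumours. Of 6 members tested 1 was called, lower, and 13.8% of all genes tested were called. Cd209b was at 0.819, 1.10 and 0.903 CPM in tumours 1, 3 and 6 and at 2.79, 2.77, 2.87, 2.01 and 2.59 CPM in the 5 non-tumour lungs. Every tumour was below every lung. The difference was -1.47 ± 0.25 on the log2 scale, or 2.77-fold lower (adjusted p = 0.00707, edgeR).

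Within an animal, Cd209b was 3.41-fold lower in the tumour of animal 1, 2.60-fold in animal 3 and 2.22-fold in animal 6 than in the lung of the same code. With the animal as a block, on these 3 pairs alone, the difference was -1.43 ± 0.31 and was no longer called (adjusted p = 0.081, edgeR). Of all genes 135 were called in that smaller fit, against 2134 without the block. The call held when each library was left out in turn, with adjusted p from 0.0075 to 0.0288.

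Cd209f was at 0.444, 0.316 and 1.92 CPM in tumours 1, 3 and 6 and at 3.75, 2.65, 2.49, 6.43 and 2.98 CPM in the lungs. The tumours lay below all lungs, with tumour 6 closest to them. The lung of that animal also had the highest Cd209f of its group. The difference of -2.04 ± 0.61, or 4.11-fold, missed the threshold (adjusted p = 0.0563, edgeR). Without tumour 6 it was -3.26 ± 0.53 and called (adjusted p = 0.00279, edgeR), whereas without tumour 1 or tumour 3 it was -1.66 or -1.62 and was not called (adjusted p = 0.16 and 0.176, edgeR).

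Cd209g was at 0.171, 0.276 and 0.550 CPM in tumours and at 1.68, 0.507, 0.838, 2.62 and 1.20 CPM in the lungs. Tumour 6 lay just above lung 2, and the other tumours lay below all lungs. The difference was -2.04 ± 0.62 (adjusted p = 0.0599, edgeR). Without tumour 6 it was -2.60 ± 0.74 and called (adjusted p = 0.0318, edgeR), and without tumour 1 or tumour 3 it was -1.67 or -1.91 and was not (adjusted p = 0.182 and 0.19, edgeR). For the summed reads of Cd209f and Cd209g it was -2.04 ± 0.58 and was called (adjusted p = 0.0464, edgeR). By animal the sum was 8.85-fold, 5.63-fold and 3.66-fold lower in the tumour, and with the animal as a block the adjusted p was 0.0557 for Cd209f and 0.0713 for Cd209g.

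**Figure D4:**
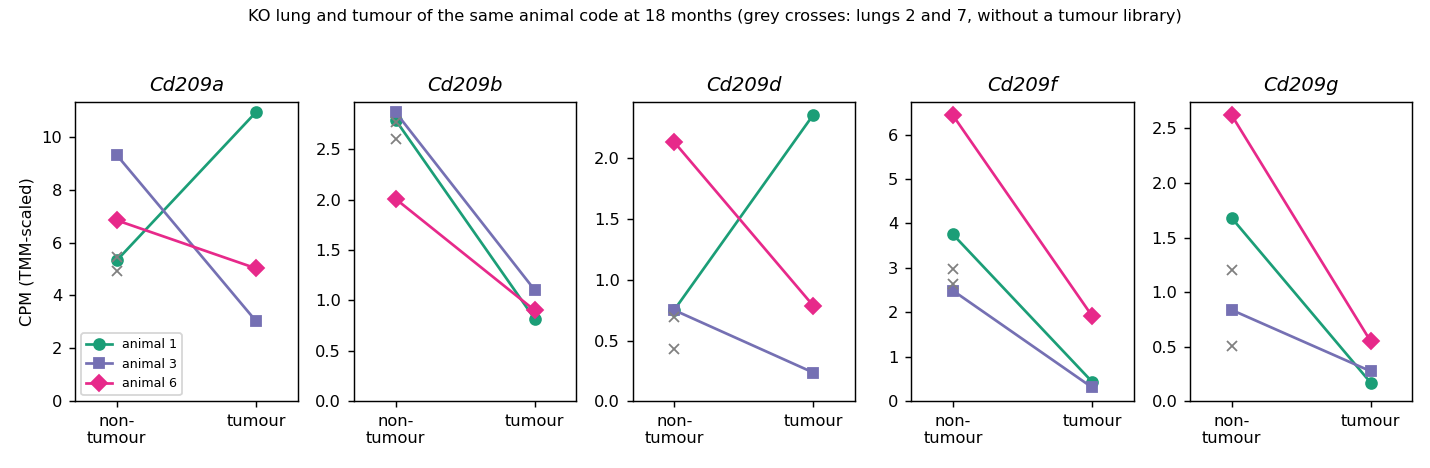
CPM (TMM-scaled, vertical axis) of Cd209a, Cd209b, Cd209d, Cd209f and Cd209g in KO non-tumour lung and in the tumour of the same animal code, with lines joining animals 1, 3 and 6 and grey crosses for lungs 2 and 7. Lines fall in all 3 animals for Cd209b, Cd209f and Cd209g, whereas for Cd209a and Cd209d animal 1 rises and animals 3 and 6 fall.

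Cd209a showed no common direction in tumours. It was at 10.9, 3.04 and 5.03 CPM in tumours 1, 3 and 6, which is 2.05, 0.327 and 0.735 times the level in the lung of the same animal. The fitted difference was -0.02 ± 0.38 (adjusted p = 0.977, edgeR). Cd209d, at 2.35, 0.237 and 0.785 CPM in the tumours, followed the same order, at 3.14, 0.316 and 0.369 times the lung of the same animal. Cd209c, at 0.751, 0.316 and 0.942 CPM, overlapped the lungs, which ranged from 0.143 to 0.736 CPM.

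Cd209e, otherwise close to the detection limit, stood out in a single tumour. Tumour 1 had 44 reads, whereas tumours 3 and 6 had 2 and 1 reads and the 5 lungs had 0 to 3. The gene was not tested in this comparison. Tumour 1 was thus the tumour with the most Cd209a, Cd209d and Cd209e. Its Cd209b and Cd209g values in CPM were the lowest of the 3 tumours, but only by small steps. Tumours 1, 3 and 6 had 24, 28 and 23 reads of Cd209b and 4.81, 6.52 and 13.8 of Cd209g. The sum of Cd209f and Cd209g was instead lowest in tumour 3, at 0.592 CPM against 0.614 CPM in tumour 1.

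The mean shares of Cd209a and Cd209f within the family were unlike in tumour and lung, which was not tested. Cd209f took 28.8 ± 5.87% of the summed FPKM of the 7 genes in KO lung at 18 months (SD, n = 5) and 11.9 ± 10.5% in the tumours (n = 3). Cd209a took 37.0 ± 9.58% and 52.1 ± 7.96%. The ranges of both shares overlapped between the groups, and the Cd209f share rests on the estimated division of reads, so these values are a description.

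Other genes around the family gave a mixed picture in tumours. Of 23 other C-type lectin receptors 2 were called higher and 1 lower, a share close to the 13.8% called over all genes tested. Their median difference was 0.22 against -0.01 over all genes. The lower one was Clec4g, which flanks the Cd209 genes, at 0.375, 0.355 and 0.589 CPM in tumours 1, 3 and 6 against 0.983 to 2.18 CPM in the lungs (-1.89 ± 0.36, adjusted p = 0.0105, edgeR). Mrc1 was higher at 226, 129 and 144 CPM against 79.7 to 107 CPM (0.85 ± 0.18, adjusted p = 0.0154, edgeR). The other lectin called higher, Cd207 (langerin), was near the threshold (adjusted p = 0.0462, edgeR) and lost its call without tumour 1 or 3 or without lung 2, 3, 6 or 7.

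Among 14 genes for ligands and signalling partners of DC-SIGN 1 was called higher and 1 lower, also close to the 13.8% over all genes tested. Malt1, a protease of the CARD9 signalling complex, was 3.76-fold higher (adjusted p = 0.000963, edgeR), and Icam2, an endothelial adhesion molecule that DC-SIGN binds, was 2.34-fold lower (adjusted p = 0.0223, edgeR) but lost its call without tumour 1, tumour 3 or lung 2. Among 17 tested genes of the IL-4 and GM-CSF response, the cytokines used to grow DC-SIGN-bearing dendritic cells from monocytes, 5 were called higher and 0 lower. Retnla, a secreted product of IL-4-treated macrophages, was higher by 4.43 ± 0.89 on the log2 scale (adjusted p = 0.0131, edgeR). It was the gene of these 5 that kept its call with each library left out and with the animal as a block, under which Malt1 (adjusted p = 0.0486) was also called and Clec4g, Mrc1 and Icam2 were not (adjusted p = 0.112, 0.0874 and 0.0813).

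Cell type markers in the same libraries were uneven, and 13.8% of all genes tested were called in this comparison. Of 14 interstitial macrophage genes 1, Cbr2, was called lower, at 4404 to 5302 CPM in KO lung and 1604 to 1984 CPM in tumours. The other 13 summed to 922 to 1490 CPM in lung and 949 to 1243 CPM in tumours, which overlap, and the median difference of the 14 was -0.04. Of the 14 genes 8 had a difference below 0 and 6 above. Folr2 was at 2.35 ± 0.454 CPM in tumours and 4.04 ± 1.46 CPM in lung. Lyve1 was at 215 ± 167 CPM in tumours and 334 ± 127 CPM in lung. Both had lower means in tumours, with overlap, and were not called. Alveolar macrophage genes summed to 887 to 2132 CPM in lung and to 13061, 2367 and 2256 CPM in tumours 1, 3 and 6, with 2 of 9 called higher and 1 lower. Their most abundant gene, Chil3, is also on the list of the IL-4 and GM-CSF response, which summed to 1626 to 2812 CPM in lung and to 16280, 3077 and 3349 CPM in tumours. Both lists were highest in tumour 1. Dendritic cell genes summed to 250 to 311 CPM in lung and 256 to 556 CPM in tumours, with 2 of 10 called higher. Genes of sinus and marginal zone macrophages summed to 102 to 148 CPM in lung and 88.9 to 134 CPM in tumours, with 0 of 5 called. No gene of these lists had a mean of 0 in either group, and their part in the lower Cd209b, Cd209f and Cd209g levels was not tested.

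Members also differed in how they varied among libraries of the same group. After the group mean of log2(CPM + 1) was subtracted, Cd209f and Cd209g had a Pearson correlation of 0.88 over the 23 libraries, Cd209a and Cd209d 0.60, Cd209d and Cd209g 0.47, and Cd209a and Cd209b -0.16. The first value is bound to the estimated division of shared reads. In the 15 libraries with at least 50 reads of the pair, Cd209g took 15.7% to 31.1% of them, with a median of 26.7%. All these libraries share depth and tissue composition as sources of common variation, so the correlations are a description.

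**Figure D5:**
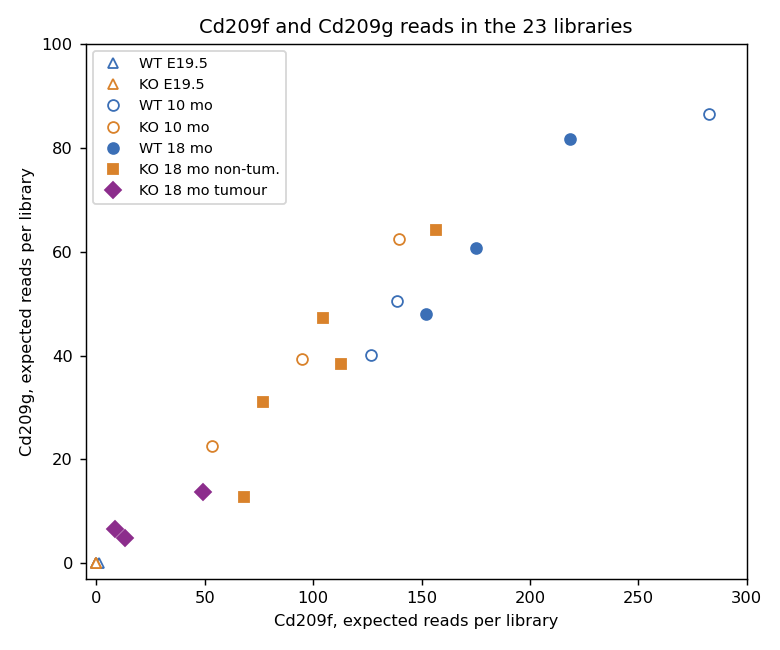
Expected reads of Cd209f (horizontal axis) and Cd209g (vertical axis) in the 23 libraries, with 1 symbol per library by group. Libraries with more Cd209f reads also have more Cd209g reads, WT and KO adult lung overlap on both axes, and the embryos are at 0 or 1 read. The 3 tumours, at 8.48 to 49.2 reads of Cd209f, lie below the adult lungs on that axis but not on the Cd209g axis.

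Of 13848 genes with a mean of at least 1 CPM, the 7 members left out, those most like each member after the same subtraction were as follows. Mgl2, the lectin of dendritic cells and macrophages, was the most like Cd209a (r = 0.89), ahead of Hc, Ptafr, Tinag and Soat1. It was at 46.95, 11.7 and 20.9 CPM in tumours 1, 3 and 6, the same order as Cd209a. Jchain and Mzb1, a chaperone of plasma cells, were the most like Cd209d (r = 0.86 and 0.84). Jchain was at 1444 CPM in tumour 1 and 753 CPM in lung 6, the libraries with the highest Cd209d of their groups. Mgl2 and Jchain were picked by their likeness over these same libraries, so such shared orders are bound to that choice and are no separate result.

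Mmp23, a matrix metalloproteinase, was the most like Cd209f (r = 0.87) after Cd209g itself. Npepl1 was the most like Cd209g outside the family (r = 0.82), and Folr2, the folate receptor of resident macrophages, was also among the 5 (r = 0.77). Cs, the citrate synthase gene, was the most like Cd209b (r = 0.82), followed by the epithelial genes Krt15 and Dsc2.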

How the data were processed

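The authors deposited a table of expected counts per gene and a table of FPKM values, each with 24411 genes in 23 libraries. Per the submitters' processing notes, reads were handled with Trimmomatic 0.36, STAR 2.5.2b and RSEM 1.3.0 on build mm10. The division of reads between similar genes is part of that estimate. Expected counts were rounded and the groups of a comparison, without the other groups, entered a model of edgeR 4.0.16 under R 4.3.3 (scaling by TMM, filterByExpr, robust quasi-likelihood F test, Benjamini-Hochberg over all genes tested, calls at adjusted p under 0.05, prior count of 0.125). SE was obtained by dividing the size of the log2 fold change by the root of F. The differences of genotype effects used a fit over 4 groups. FPKM values, deposited by the authors, served to compare levels between genes and for limma 3.58.1 on log2(FPKM + 0.1). Other alternatives were DESeq2 1.42.0, RLE factors, no filter, a fit over all 23 libraries, leaving out each library, and the replicate number as a block.

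Gene positions and transcripts are from GENCODE M21, and promoter windows from RefSeq. All 7 members are named, together with up to 4 genes of each list and the 5 genes most like each member with a mean of at least 20 reads. The members and lists were chosen with earlier results of these data known. Lists other than the members are those for lectins, DC-SIGN partners, IL-4 and GM-CSF response, and cell type markers. The average over both adult ages and the sum of Cd209f and Cd209g were added after seeing the data.

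Tumours and lungs 1, 3 and 6 carry the same library codes and are read as pairs of 1 animal. Their deviations had correlations of 0.465, 0.00494 and 0.0588, so that the data show the pairing for animal 1 and not for 3 and 6. Whether replicates came from separate litters or cages is not in the labels, so the p-values rest on the spread among these libraries, which may be technical in part. The test, run on simulated data for tumours against KO lung, recovered 37.3% of genes changed 2-fold and 78.8% of those changed 4-fold over 15335 genes. In the simulations the changed genes were drawn at random and not matched to the reads of the members. Intervals and floors cover counting error only. Figures were drawn with Python 3.11.15 and matplotlib 3.10.9.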

Additional observations from a re-analysis of the deposited data

Results flagged for a closer look

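Cd209d in KO non-tumour lung 6 at 18 months, at 2.13 CPM, lay far from the other 4 lungs of its group, which were at 0.429 to 0.751 CPM. Its gap to the next lung was 0.811 of the whole range, against a critical value of 0.71 for 5 samples. Of the 7 members tested this way in that group it was the 1 to pass. By chance alone about 1 in 20 such tests of a single gene is flagged, so 1 flag among 7 genes is less rare than that. The same lung had the highest Cd209f (6.43 CPM) and Cd209g (2.62 CPM) of its group and the highest Jchain (753 CPM). Jchain was picked for its likeness to Cd209d over these libraries, so its value there is no separate result.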

How the results depend on the processing

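The lower Cd209b in tumours held its direction in every alternative and its call in all but the fit with the animal as replicate block. With that replicate block 0 members were called in tumours, against 1 without it. DESeq2, the edgeR fit over all 23 libraries and limma on log2(FPKM + 0.1) each called 3 members, limma on log2(FPKM + 1) and limma without the filter each called 2, and leaving out 1 library gave 1 to 3. At 18 months DESeq2 called 1 member (Cd209b) for genotype. Over both adult ages DESeq2 called 3, the fit over all libraries 0, and leaving out 1 library gave 0 to 2. In the other comparisons the replicate number does not pair libraries, and the block changed no count of members called.

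Uncalled members near 0 changed sign. Cd209d in tumours was -0.14 with limma on log2(FPKM + 0.1), with and without the filter, -0.0045 with a pseudocount of 1, -0.40 with the block, and -0.84 to 0.76 with 1 library left out. Cd209a in tumours ranged from -0.62 to 0.32 in that way. Cd209c ranged from -0.12 to 0.48 at 10 months, from -0.41 to 0.10 at 18 months and from -0.15 to 0.16 over both ages. The cause of these changes was not tested beyond the fewer samples in each fit.

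Counts over all genes moved more. At 10 months 233 genes were called by edgeR, 586 by DESeq2, 77 to 88 by limma, 40 in the fit over all libraries, 63 with the block and 66 to 205 with 1 library left out (under 1.5 times fewer only without KO lung 2). At 18 months the counts were 12, 157 by DESeq2, 26 in the fit over all libraries and 3 to 26 with 1 library left out (3 to 6 without a WT lung, 26 without KO lung 7). In tumours they were 2134, 3400 by DESeq2, 5121 in the fit over all libraries, 135 with the block and 1074 to 4066 with 1 library left out. There limma on log2(FPKM + 0.1) called 820 higher and 1422 lower, where edgeR called 1113 and 1021. Over both adult ages they were 276, 753 by DESeq2, 135 in the fit over all libraries and 109 to 378 with 1 library left out. For the effect at 10 months minus E19.5 they were 25, 107 by DESeq2 and 6 in the fit over all libraries. Depth limits Cd209c and Cd209e most, with means of 11.6 and 4.74 reads per library.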
